A study of Mus musculus with 2 samples.

Results

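The Tfap2 genes encode the AP-2 transcription factors, and all 5 mouse members (Tfap2a, Tfap2b, Tfap2c, Tfap2d and Tfap2e) are described here by the open chromatin in and around them. They are 5 of the 21938 protein-coding genes on the main chromosomes in GENCODE M21, chosen by name. Open chromatin was mapped by DNase-seq, in which DNase I cuts accessible DNA in nuclei and the released ends are sequenced. The tissue was embryonic facial prominence, which builds the face, dissected from healthy B6NCrl mouse embryos on embryonic day 14.5 with males and females pooled. There was 1 group of 2 biological replicates, each a tissue sample of its own but listed under the same donor record, and the labels give no genetic change or treatment. Differences between the replicates therefore show only the spread between these samples. For each member the gene body and 200 kb on either side were examined, and the 5 windows held 232 of 304233 peaks in replicate 1 and 179 of 217980 in replicate 2.

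AP-2 proteins bind GC-rich DNA as dimers through a helix-span-helix domain and either activate or repress their targets. In the embryo they act in the neural crest, which gives rise to most of the facial skeleton, and in the ectoderm that covers the face. Loss of Tfap2a in mice leaves the face and the anterior neural tube unclosed, and changes in human TFAP2A and TFAP2B cause syndromes that affect the face.

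A peak in the deposited lists is a region of 150 bp with a score from the authors, and no normalization of it is stated, so scores are used to rank and describe peaks within 1 list. A hotspot is a broader region of raised cutting. A site is called shared where peaks of both replicates overlapped, and its coordinates run over both peaks. A promoter site lay within 500 bp of a start site of the gene, and a distal site lay more than 1000 bp from every annotated start site. Read depth is not given in the sources used here. The list of replicate 2 is shorter, and absence from it is no evidence of closed chromatin.

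The sequences below are the strongest shared promoter sites of Tfap2a, Tfap2b and Tfap2e and the strongest shared distal sites of the members, ranked by the mean of the within-list score percentiles, so that the later values can be tied to actual DNA. They are read from the GRCm38 (mm10) genome, 5′ to 3′ on the strand of the member. Capitals mark GCCNNNGGC, a palindromic form of the AP-2 binding motif. Bases of untranslated exons were removed, which left only the coding bases of the Tfap2b promoter site.

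Tfap2a promoter, chr13:40730716-40730885, minus strand: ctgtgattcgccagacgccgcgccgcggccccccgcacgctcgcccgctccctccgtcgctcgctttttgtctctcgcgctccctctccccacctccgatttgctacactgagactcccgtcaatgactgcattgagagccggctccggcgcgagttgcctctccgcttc

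Tfap2b promoter, chr1:19209168-19209205, plus strand: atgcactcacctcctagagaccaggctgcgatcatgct

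Tfap2e promoter, chr4:126736256-126736425, minus strand: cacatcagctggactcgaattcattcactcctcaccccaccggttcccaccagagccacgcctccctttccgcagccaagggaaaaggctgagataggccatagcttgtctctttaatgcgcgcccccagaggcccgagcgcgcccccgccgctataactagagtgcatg

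Tfap2a strongest distal site, chr13:40854716-40854865, minus strand: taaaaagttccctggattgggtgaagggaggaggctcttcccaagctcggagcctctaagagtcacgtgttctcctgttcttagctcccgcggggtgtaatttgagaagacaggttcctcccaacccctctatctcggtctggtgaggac

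Tfap2b and Tfap2d strongest distal site, chr1:19206336-19206485, plus strand: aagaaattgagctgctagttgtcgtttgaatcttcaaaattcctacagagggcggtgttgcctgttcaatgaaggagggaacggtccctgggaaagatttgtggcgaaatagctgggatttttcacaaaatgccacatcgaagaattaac

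Tfap2c strongest distal site, chr2:172547236-172547385, plus strand: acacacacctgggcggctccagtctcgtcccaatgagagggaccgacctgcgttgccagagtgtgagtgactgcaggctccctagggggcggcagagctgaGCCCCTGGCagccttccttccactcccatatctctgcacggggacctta

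Tfap2e strongest distal site, chr4:126741536-126741725, minus strand: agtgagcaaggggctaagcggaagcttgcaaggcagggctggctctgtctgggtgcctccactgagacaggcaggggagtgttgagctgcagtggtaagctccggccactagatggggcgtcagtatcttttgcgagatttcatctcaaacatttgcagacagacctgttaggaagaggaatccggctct

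Of these 7 sequences, only the Tfap2c distal site holds the capitalised motif. GC content was 67.1% in the Tfap2a promoter site, against 43.3% in the distal site upstream of Tfap2b.

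The tissue label was checked against promoters of marker genes. Of all protein-coding genes 67.5% had a shared promoter site, so a full count in a short list says little alone. Shared promoter sites were present at 10 of 10 facial mesenchyme genes, 10 of 10 epithelial genes and 7 of 7 genes of neurons and ganglia. They were present at 0 of 5 hepatocyte, 0 of 4 erythroid and 0 of 4 kidney genes, and at 2 of 4 cardiomyocyte and 2 of 4 olfactory genes. The cardiomyocyte genes with one were Nkx2-5 (66 in replicate 1 and 32 in replicate 2) and Tnnt2 (88 and 48). The olfactory genes with one were Ebf2 (136 and 125) and Gng13 (45 and 31), and those without were Omp and Cnga2. The samples were bulk tissue, so a site open in fewer cells and a site less open in each cell cannot be told apart.

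Promoters of 4 of the 5 members carried a shared site, and Tfap2d was the exception. Of all protein-coding genes 67.5% had a shared promoter site, with a promoter peak at 70.9% in replicate 1 and 68.7% in replicate 2. The members' count is therefore near what genes in general show. The open member promoters ranked below the middle of all open promoters by score. In replicate 1 the highest promoter peak of a gene had a median score of 120, with quartiles at 88 and 136. In replicate 2 the median was 110 and the quartiles were 78 and 125. Each of the 4 members lay under both medians.

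**Figure D1:**
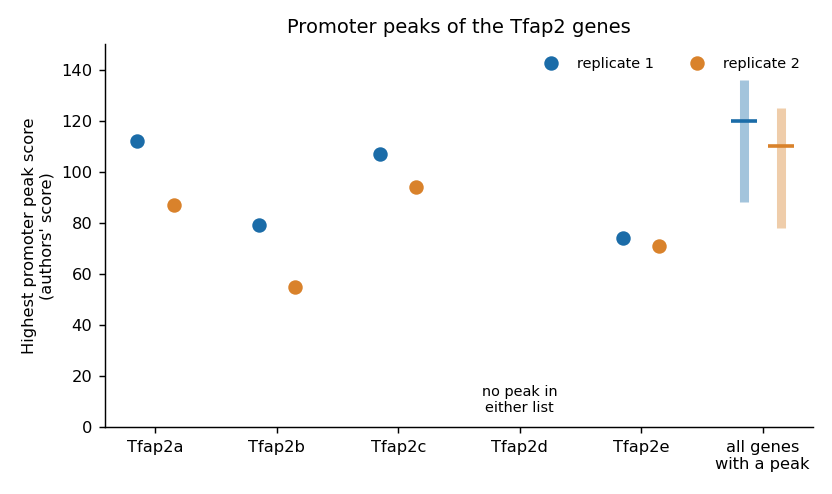
Highest peak score (the authors' score) within 500 bp of a start site of each Tfap2 gene, with 1 point per replicate; at the right, the bar spans the quartiles and the line marks the median over all protein-coding genes with a promoter peak. Tfap2a and Tfap2c lie highest among the members, Tfap2b and Tfap2e lie below the lower quartile in both replicates, and Tfap2d has no point.

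Tfap2a (ENSMUSG00000021359.16, chr13:40715302-40738376, minus strand), the member most tied to neural crest and facial closure, scored 112 in replicate 1 and 87 in replicate 2 at its strongest promoter peak. Among genes with a promoter peak this placed it at the 41.1 and 30.0 percentiles. The gene has 6 annotated start sites, and 3 of them had a peak within 500 bp in both replicates. The strongest peak lay upstream of the start at position 40730443, the most downstream of the starts with a peak. A peak of 104 in replicate 1 and 84 in replicate 2 covered the pair of starts at 40733823 and 40733975. No peak of either replicate lay near the starts at 40728944, 40734920 and 40738376, the last being the most upstream start of the gene. Open chromatin at Tfap2a was thus found at its internal starts and not listed at its outermost one.

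Tfap2c (chr2:172549593-172558622, plus strand), known for its roles in surface ectoderm, trophoblast and germ cells, scored 107 and 94 at its first start site. All 3 of its start sites had a peak in both replicates. The 2 internal starts at 172550782 and 172550991 shared a pair of peaks that scored 85 and 66 in replicate 1 and 78 and 51 in replicate 2. GC content within 500 bp of the first start was 63.7%, the highest at a first start among the members. The highest at any Tfap2c start was 64.5%, against a median of 56.2% over all genes, also taken at the highest start of each gene.

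Tfap2e (chr4:126716006-126736240, minus strand), best known from the olfactory bulb and vomeronasal neurons, has a single start site. Its peak scored 74 in replicate 1 and 71 in replicate 2, the 17.7 and 21.6 percentiles of genes with a promoter peak. Tfap2b (chr1:19208914-19238576, plus strand), which acts in neural crest, kidney and ductus arteriosus, scored 79 and 55, the 20.2 and 14.2 percentiles. Its 2 outer starts shared that peak, while the internal start at 19212054 had peaks of 50 and 54 in replicate 1 and none in replicate 2.

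Tfap2d (chr1:19103022-19166346, plus strand), expressed mainly in midbrain and retina, had no peak and no hotspot base within 500 bp of its only start site in either replicate. Widening the promoter to 1000 bp or replacing peaks by hotspots left the number of members with a shared promoter site at 4. The observed to expected CpG ratio within 500 bp of the Tfap2d start was 0.667. The median over all genes was 0.606, taking the highest ratio among the starts of each gene. GC content around the Tfap2d start was low, at 42.1% against a lower quartile of 48.8% over all genes. The ratio is scaled to base content, so it does not show that the sequence is rich in CpG. At the first Tfap2b start the ratio was 0.673 and GC content 39.7%.

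Distal sites showed a wider spread between the members than promoters did. Tfap2c had 48 shared distal sites in its window, Tfap2e had 28, Tfap2a had 22, Tfap2d had 11 and Tfap2b had 10, and the median over all genes was 29 (quartiles 17 and 41). Per 100 kb of window these were 11.7, 6.66, 5.20, 2.37 and 2.33 shared distal sites, against a median of 6.59. The Tfap2c window was denser than those of 91.4% of genes, and those of Tfap2b and Tfap2d denser than only 16.7% and 16.9%. The windows of Tfap2b and Tfap2d overlap over 357 kb and hold mostly the same sites, so these values are not separate measurements.

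**Figure D2:**
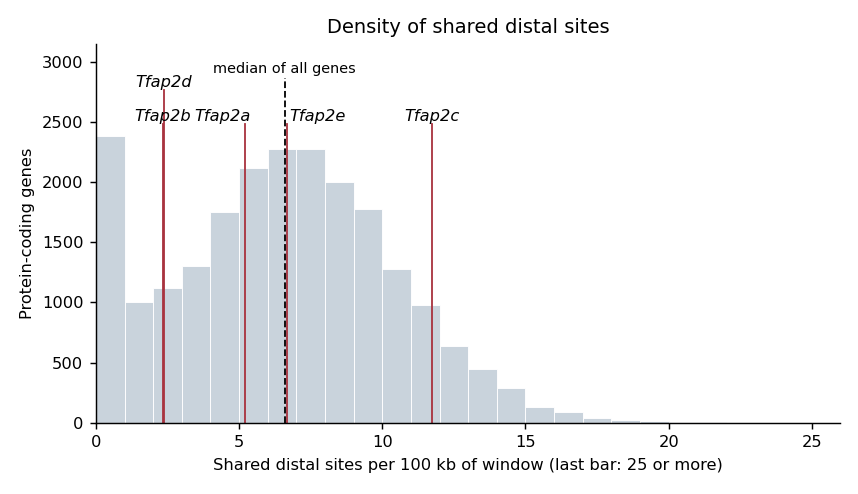
Histogram of shared distal sites per 100 kb of window over 21938 protein-coding genes, with a red line for each Tfap2 gene and a dashed line at the median. Tfap2c lies in the upper tail at 11.7, Tfap2a and Tfap2e lie near the median, and Tfap2b and Tfap2d lie together at 2.33 and 2.37.

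Counting each replicate alone gave Tfap2c 17.6 distal peaks per 100 kb in replicate 1 and 14.2 in replicate 2. The corresponding values were 10.9 and 7.80 for Tfap2a and 9.99 and 8.81 for Tfap2e. They were 4.89 and 2.56 for Tfap2b and 5.18 and 2.37 for Tfap2d. The replicate ranges of Tfap2a and Tfap2e overlapped, as did those of Tfap2b and Tfap2d, so the order within each pair is not set by these data. The lowest Tfap2c value exceeded the highest value of any other member, and the highest value of Tfap2b and Tfap2d lay under the lowest of the other 3. With 2 samples of 1 group no test across samples can be made.

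**Figure D3:**
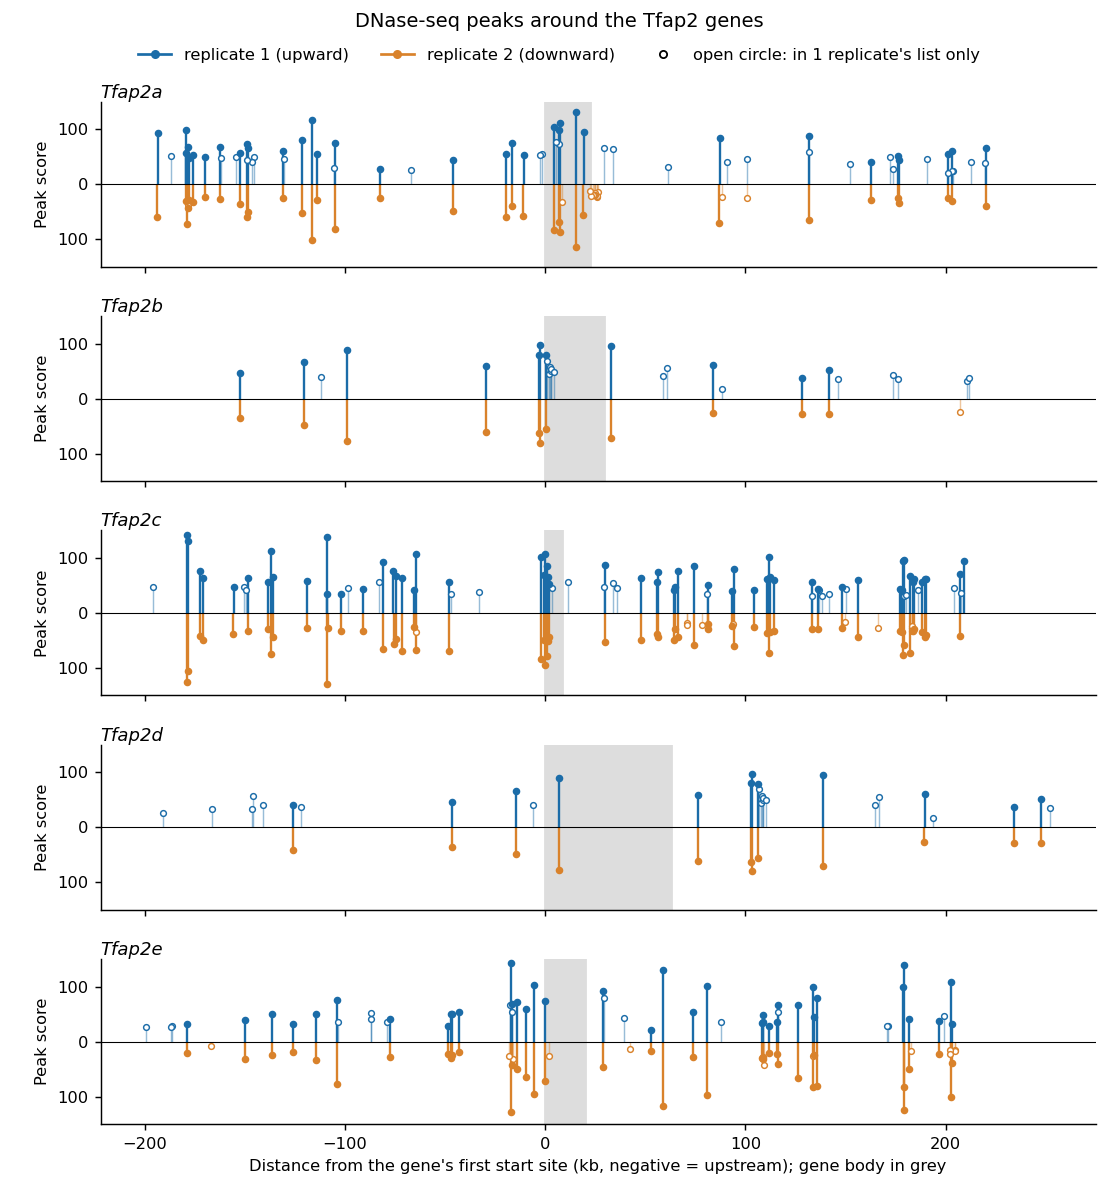
Peak scores along each window against distance in kb from the first start site of the gene, replicate 1 upward and replicate 2 downward, with the gene body in grey and open circles for peaks in 1 list only. Tfap2c is densely covered on both sides, while Tfap2b and Tfap2d show the same few peaks and long stretches with none.

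The Tfap2c window held most of its distal sites on the 3′ side of the gene, with 32 downstream and 16 upstream. Of the 48 sites, 38 lay between genes, and for 31 the nearest protein-coding start was that of Tfap2c itself. Distance alone does not tell which gene a site serves. The highest ranked site, printed above, scored 101 in replicate 1 and 83 in replicate 2. It lay 2.21 kb upstream of the first start and was also the nearest distal site. After it came a site in an intron of Cass4, a scaffold protein gene (chr2:172412556-172412725), with scores of 113 and 74. The next, at chr2:172758616-172758785, scored 95 and 84 and lay 208 kb downstream, across the end of the window at 172758622. Its nearest coding start, that of Bmp7, a bone morphogenetic protein, was also far away, at 181536 bp.

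The widest hotspot of the Tfap2c window in replicate 1 spanned 847 bp at chr2:172728118-172728964, 177 kb downstream of the nearest start of the gene, against a median hotspot width of 264.5 bp there. In replicate 2 the widest was 908 bp and lay upstream, at the start of Aurka, a mitotic kinase gene. Among the other coding neighbours, Aurka and Cstf1 shared a promoter site of 141 and 125, and Rtf2 had 139 and 129. Cass4 had 47 and 39, Gcnt7 had 44 and 32, and Fam209 had no shared promoter site. The Tfap2c promoter thus ranked between strong and weak neighbours.

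Tfap2a had 14 shared distal sites upstream and 8 downstream. The highest ranked, printed above, scored 117 in replicate 1 and 102 in replicate 2. It lay 116 kb upstream of the nearest Tfap2a start but only 4889 bp from a start of Gcnt2, a glycosyltransferase gene. The promoter site at that Gcnt2 start scored 80 and 52, and the highest at any Gcnt2 start scored 99 and 73. The second ranked distal site, the nearest to any Tfap2a start, lay within Tfap2a. It was 1173 bp upstream of the start at 40730443, with scores of 99 and 68. In the full rather than the basic annotation a further transcript starts 9 bp from this site, so its place as distal depends on the annotation. Next in rank was a site 77.5 kb downstream at chr13:40651216-40651405, with scores of 84 and 70.

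The latter 2 of these Tfap2a sites hold the AP-2 motif, unlike the highest ranked one. The intronic one is printed here because it lies inside the gene.

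Tfap2a intronic site with the motif, chr13:40731616-40731765, minus strand: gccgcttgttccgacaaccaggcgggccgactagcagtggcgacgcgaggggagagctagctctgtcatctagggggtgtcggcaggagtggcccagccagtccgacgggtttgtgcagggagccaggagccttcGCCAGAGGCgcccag

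The strongest site in the whole Tfap2a window was neither in the promoter nor in the distal class. It lay in a Tfap2a intron at chr13:40722816-40722985 with scores of 131 and 114, above the gene's own promoter in both replicates. Its class follows from the start of the antisense gene Gm47061, 125 bp away. DNase-seq cuts both strands, so it does not show to which of the 2 genes the site belongs.

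Tfap2a strongest site, chr13:40722816-40722985, minus strand: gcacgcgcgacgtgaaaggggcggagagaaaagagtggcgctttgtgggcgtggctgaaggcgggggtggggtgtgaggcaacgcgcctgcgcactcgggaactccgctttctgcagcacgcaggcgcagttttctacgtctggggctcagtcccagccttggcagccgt

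The widest hotspot of the Tfap2a window in replicate 1 spanned 1015 bp at the start of Gm47039, 122 kb downstream, and in replicate 2 it spanned 789 bp at the Tfap2a promoter. A further distal site covered a coding exon of Tfap2a, at chr13:40719176-40719345, and scored 95 and 56. Hotspots covered 12.8% of the Tfap2a gene body in replicate 1 and 11.6% in replicate 2, and 14.6% and 10.2% of that of Tfap2c. The medians over all genes were 4.19% and 3.14%. These 2 genes had the most covered bodies of the family, with percentiles between 85.6 and 89.3. Body coverage takes in hotspots at start sites and depends on gene length, which was 9.03 kb for Tfap2c, 23.1 kb for Tfap2a and 63.3 kb for Tfap2d. The 3 shared sites in the Tfap2c body all lay within 505 bp of a start of the gene.

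Hotspots covered less of the bodies of the other 3 members. Coverage was 0.486% and 0.510% for Tfap2d and 0.376% and 0.914% for Tfap2e. Tfap2b had 4.84% in replicate 1 and 0.499% in replicate 2, so that it resembled the median gene in 1 replicate and Tfap2d in the other. Over the whole window, coverage in replicates 1 and 2 was 5.68% and 4.23% for Tfap2c. It was 3.99% and 3.73% for Tfap2e, 3.82% and 2.74% for Tfap2a, 1.63% and 0.680% for Tfap2d and 1.56% and 0.690% for Tfap2b. The medians over all genes were 4.70% and 3.48%.

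**Figure D4:**
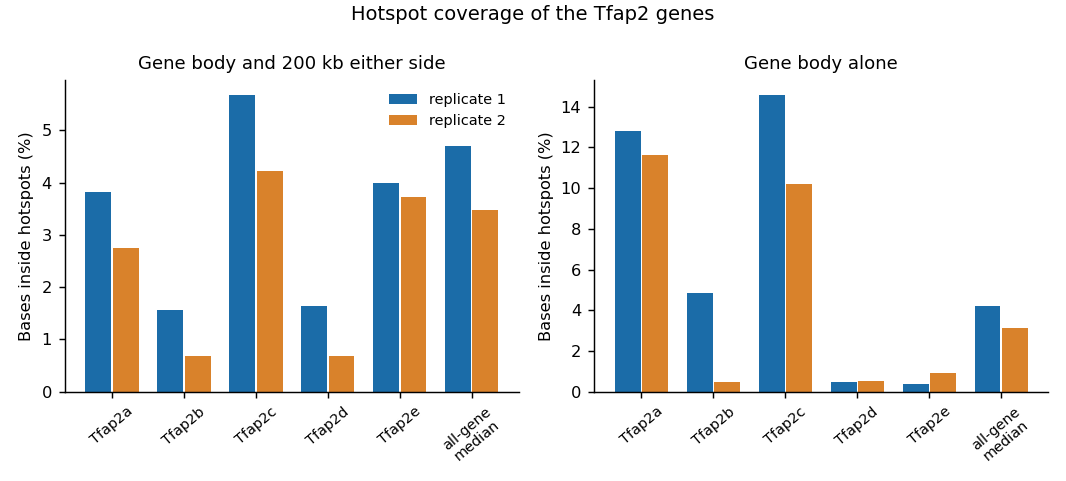
Percent of bases inside hotspots for each Tfap2 gene and the median of all protein-coding genes, in the window (left) and in the gene body alone (right), with 1 bar per replicate. Tfap2a and Tfap2c have the most covered bodies, and the Tfap2e body is nearly uncovered although its window is near the median.

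Tfap2e sat among the promoters of other genes. For only 2 of its 28 shared distal sites was the nearest coding start that of Tfap2e. The highest ranked site, printed above, was 1 of them. It was the nearest distal site, 5.30 kb upstream of the start, and scored 104 in replicate 1 and 95 in replicate 2, above the Tfap2e promoter itself. The second, at chr4:126655456-126655625, scored 102 and 97 and lay 80.6 kb downstream, closer to Psmb2, a proteasome subunit gene. The next, at chr4:126602196-126602365, scored 100 and 82, lay 134 kb downstream and holds the AP-2 motif.

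Tfap2e distal site with the motif, chr4:126602196-126602365, minus strand: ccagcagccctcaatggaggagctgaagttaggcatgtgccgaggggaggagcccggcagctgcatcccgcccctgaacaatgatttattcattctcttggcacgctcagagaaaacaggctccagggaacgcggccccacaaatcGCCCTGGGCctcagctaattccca

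The widest hotspots of the Tfap2e window, 1645 bp in replicate 1 and 1228 bp in replicate 2, covered the start shared by Ncdn and AU040320, whose promoter site scored 143 and 127. Ncdn encodes neurochondrin, a neuronal protein. Of the other neighbours, Clspn scored 140 and 125, Psmb2 130 and 117, Ago4 108 and 100, and 5730409E04Rik 67 and 65. Of these 6 neighbours, only 5730409E04Rik had a lower promoter score than Tfap2e in both replicates.

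Tfap2b and Tfap2d lie head to tail on chromosome 1, with their first starts 106 kb apart and no other coding start in either window. Their strongest shared distal site lay 2.43 kb upstream of Tfap2b, scored 97 in replicate 1 and 80 in replicate 2, and exceeded the Tfap2b promoter in both. The second, at chr1:19241476-19241645, scored 96 and 71 and lay 29.4 kb downstream of the nearest Tfap2b start. The next scored 89 and 77 and lay in a Tfap2d intron. It was the distal site nearest to the Tfap2d start, at 6.77 kb, and the only peak of either replicate in the Tfap2d body.

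Tfap2d intronic site, chr1:19109796-19109945, plus strand: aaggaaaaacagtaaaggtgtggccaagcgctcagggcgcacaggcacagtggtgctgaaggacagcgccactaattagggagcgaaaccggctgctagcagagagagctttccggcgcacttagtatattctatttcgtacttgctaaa

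From that site towards Tfap2b, 69.2 kb held no peak of either replicate, and upstream of Tfap2d a further 75.3 kb held none. The widest such gaps in the other 3 windows were between 30.5 and 35.0 kb. The shared distal sites of the Tfap2b window were few but not weak. Their median score was 63.5 in replicate 1 and 54.5 in replicate 2, against 60 and 37 over all shared distal peaks. The medians were 62.5 and 42.5 near Tfap2c, 56 and 35.5 near Tfap2a, and 50.5 and 29 near Tfap2e. The widest hotspots of the Tfap2b window measured 509 bp in replicate 1 and 410 bp in replicate 2, and those of the Tfap2d window 531 and 410 bp.

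Over the genome 59.2% of the peaks of replicate 1 and 83.6% of those of replicate 2 overlapped a peak of the other list. In the Tfap2b window these shares were 42.3% of 26 peaks and 91.7% of 12, and in the Tfap2d window 41.4% of 29 and 100% of 12. The windows of this gene pair thus had the lowest share of the family in replicate 1 and the highest in replicate 2. The shares were 54.8% of 62 and 72.3% of 47 near Tfap2a, 71.1% of 83 and 85.5% of 69 near Tfap2c, and 70.4% of 54 and 76.0% of 50 near Tfap2e. The ratio of distal peak counts, replicate 1 to replicate 2, was 1.91 for Tfap2b and 2.18 for Tfap2d, against a median of 1.38 over all genes (quartiles 1.21 and 1.58). It was 1.39 for Tfap2a, 1.24 for Tfap2c and 1.14 for Tfap2e. Replicate 1 had the longer list over the genome, and its part in these ratios was not tested.

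A pair of local runs, picked out after their values were seen, went in opposite directions. In the body of Tfap2b replicate 1 had 7 peaks, of which 6 were absent from replicate 2. These 6 scored between 44 and 69 and all lay within the first stretch of the gene, ending at 19213225. Replicate 2 had only the promoter peak. Within 5 kb of the 3′ end of Tfap2a, replicate 2 had 10 peaks, of which 9 were absent from replicate 1. These 9 were weak, with scores between 12 and 23, while the peak found in both replicates was the coding exon site.

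The strongest distal peaks found in 1 list only lay between the 18.5 and 83.1 percentiles of their list. In replicate 1 they scored 79 for Tfap2e (chr4:126706876-126707025, in a Psmb2 intron) and 66 for Tfap2a (chr13:40709056-40709205). They scored 57 for Tfap2c (chr2:172561096-172561245) and for Tfap2d (chr1:18957076-18957225), and 56 for Tfap2b (chr1:19269876-19270025). In replicate 2 they scored 42 for Tfap2e (chr4:126627016-126627165), 35 for Tfap2c (chr2:172484816-172484965), 26 for Tfap2a (chr13:40637616-40637765) and 24 for Tfap2b (chr1:19416056-19416205), with none for Tfap2d. Each lay below the 3 highest ranked shared sites of its window in that replicate.

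The AP-2 motif was counted in the shared distal sites around the genes that encode its binding proteins. Of the 109 distinct sites near the members, 12 held GCCNNNGGC in their central 150 bp, which is 11.0% (exact 95% interval 5.82 to 18.4%, counting error only). Over all 140270 shared distal sites searched it was 5.65%, and over 245499 flanking windows at 1000 bp outside peaks and hotspots it was 2.55%. The 12 sites were 5 near Tfap2c, 4 near Tfap2a and 3 near Tfap2e, with 0 near Tfap2b and Tfap2d. The lower end of the interval is close to the share over all sites. When every distal peak of a single list was used, shared or not, 6.38% held the motif in replicate 1 and 11.0% in replicate 2. The matching shares over all distal peaks of each list were not taken, so these 2 values have no direct comparison.

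GC content differed along with the motif. Median GC was 51.3% in the sites near members, 48.7% in all shared distal sites and 44.0% in flanks. It was 57.7% in the 12 sites with the motif and 51.3% in the 97 without. The sites with the motif also had higher scores, with medians of 75 and 60 in replicates 1 and 2 against 57 and 36. The part of base composition in the motif count was not tested. None of the 7 shared promoter peaks of the members in replicate 1 held the motif, which was present in 15.5% of 23713 such peaks over all genes. With only 7 peaks, a count of 0 says little beside that share. A Tfap2c site with scores of 53 and 44, 505 bp from a start and so just outside the promoter class, did hold the motif. So did the Tfap2a intronic site, which lies 9 bp from a start in the full annotation. A missing match says only that these letters are not in that stretch.

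**Figure D5:**
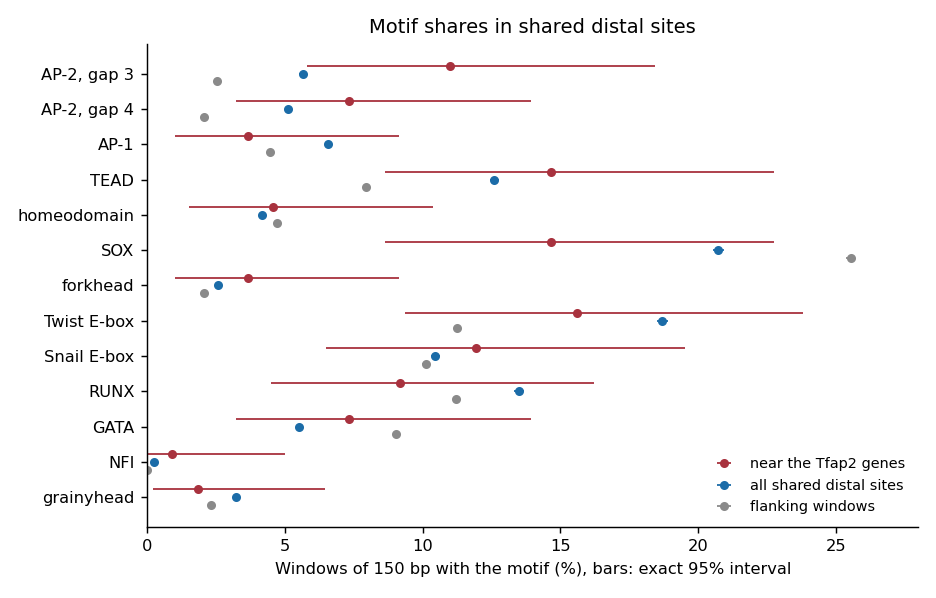
Percent of 150 bp windows that hold each of 13 motifs, searched on both strands, in 109 shared distal sites near the Tfap2 genes, in all shared distal sites and in flanking windows, with exact 95% intervals. The AP-2 motif with a gap of 3 bases is at 11.0% near the Tfap2 genes against 5.65% in all sites, and the intervals near the Tfap2 genes are wide for every motif.

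The same 2 shares were taken for the other 12 motifs. The AP-2 form with 4 bases between its arms was in 7.34% of sites near members and 5.11% of all. TGANTCA, bound by AP-1, was in 3.67% against 6.58%, and GGAATG, bound by TEAD factors, in 14.7% against 12.6%. CATCTG, an E-box bound by Twist, was in 15.6% against 18.7%, and CACCTG, bound by Snail factors, in 11.9% against 10.5%. ACAAT, the core of SOX sites, was in 14.7% against 20.7%, and TAATTA, bound by homeodomains, in 4.59% against 4.18%. TGTGGT, bound by RUNX factors, was in 9.17% against 13.5%, and AGATAA, bound by GATA factors, in 7.34% against 5.52%. TGTTTAC (forkhead) was in 3.67% against 2.57%, AACNNGTT (grainyhead) in 1.83% against 3.22%, and the NFI palindrome in 0.917% against 0.260%. For these 12 motifs the exact interval near the members included the share over all sites. The intervals treat clustered sites as independent and make no allowance for the 13 motifs searched, so they are no test of enrichment.

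The genes that work with AP-2 proteins were nearly all open at their promoters. All 12 listed cofactors and inhibitors had a shared promoter site. The 3 highest ranked were Npm1 (137 in replicate 1 and 132 in replicate 2), which encodes nucleophosmin, Wwox (143 and 127), whose product binds AP-2 proteins in the cytoplasm, and Kctd15 (138 and 126), an AP-2 inhibitor in neural crest. Each scored higher than any of the members. Cited2, a coactivator that bridges AP-2 to p300 and CBP, scored 138 and 123.

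Among 18 genes linked to AP-2 control in neural crest and mesenchyme, 17 had a shared promoter site. The exception was Hand1, a ventral arch transcription factor, which still had 46 shared distal sites in its window. The highest ranked were Ets1 (136 and 128), Sox9 (140 and 116), needed for cartilage, and Mitf (135 and 118), needed for melanocytes. Among 16 genes of surface epithelium, 15 had one, and the exception was Fgf8, a growth factor of facial ectoderm, with 43 shared distal sites. The 2 highest ranked were Erbb2 (127 and 121), a receptor tyrosine kinase, and Cdkn1a (115 and 102), a cell cycle inhibitor. Together 44 of the 46 listed genes (95.7%) had a shared promoter site, against 67.5% of all genes. Their windows held a median of 8.40 shared distal sites per 100 kb, against 6.59 over all genes and 5.20 over the 5 members. The lists were drawn from general knowledge but with earlier results of these data known, and no test was made on them.

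Genes whose open chromatin most resembled each member were found from 5 percentiles: promoter score and gene body hotspot coverage in each replicate, and shared distal sites per 100 kb. Likeness was the Euclidean distance over these 5, and it is a description over 2 samples. Nearest to Tfap2a were Tpm4 (distance 5.92 percentile points), Cebpzos and Ppp1r1a, and nearest to Tfap2c were Ntf3 (4.26), Rcc2 and Podxl2. Nearest to Tfap2e were Glipr1l1 (3.22), Fsd1 and Stap2, and nearest to Tfap2b were Upp1 (9.58), Crisp2 and Srpx. Tfap2d lay nearest to Il5ra (0.856), Slco1a1 and Rp1, which likewise had no promoter peak in either replicate. Promoter scores are among the 5 measures, so this likeness was partly built in, and 0.856 is not comparable with the distances of the other members. None of the 3 genes nearest to 1 member was among those nearest to another.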

How the data were processed

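DNase-seq of 2 replicates was analysed from the deposited mm10 lists. Peaks carry a score and hotspots a −log10 q-value, both as deposited by the authors. Per the deposited descriptions, regions were derived within each replicate from filtered alignments, with no pooling. The aligner, peak caller, false discovery rate and depth were not given in the sources used here. Per the labels, replicate 1 alone has instrument names. Only the autosomes, X and Y were used.

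Shared peaks overlapped by at least 1 bp and were merged. Start sites came from the basic GENCODE M21 annotation. Motifs were searched on both strands of the central 150 bp of sites, and 1 window with an unread base was left out. The 7 promoter sequences that RefSeq holds for the members (GRCm38) matched the genome used. Scripts used Python 3.11.15, numpy 2.4.6, pandas 2.3.3, scipy 1.17.1, pysam 0.24.0 and matplotlib 3.10.9, and were tested on simulated data.

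The members, lists and motifs were chosen with earlier results of these data known. Named by rule were all members, the coding neighbours in their windows, list genes without a shared promoter site and the 3 highest ranked of each list, the 3 highest ranked and nearest distal sites, the widest hotspots, the strongest distal peak of each replicate alone, and the 3 most similar genes. Cited2 was named outside that rule, and 1 listed gene and 1 sequence that the rule takes in are not reported here. Alternatives were each replicate alone, stronger regions, larger overlap, hotspots for peaks, lists of equal length, other windows, another motif form and, chosen after seeing the data, all annotated transcripts.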

Additional observations from a re-analysis of the deposited data

How the results depend on the processing

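The number of members with a shared promoter site was 4 under every alternative tried. The number of listed partner and target genes with one was 42 to 45, and the AP-2 motif share stayed within the exact interval of 11.0%, at 6.38 to 15.7%. That interval starts at 5.82%, close to the 5.65% over all shared distal sites. Staying inside it therefore says little on the contrast with all sites. The lowest share, 6.38%, came from replicate 1 alone. With the stronger peaks of each list, shared distal sites fell to 9 for Tfap2a, 6 for Tfap2b, 27 for Tfap2c, 6 for Tfap2d and 9 for Tfap2e. Within 100 kb they were 7 for Tfap2a, 20 for Tfap2c, 7 for Tfap2d and 18 for Tfap2e. With 1 replicate alone, distal sites numbered 32 to 46 for Tfap2a, 11 to 21 for Tfap2b, 56 to 72 for Tfap2c, 11 to 24 for Tfap2d and 36 to 42 for Tfap2e. Mean hotspot coverage with the stronger hotspots was 2.16% for Tfap2a, 3.62% for Tfap2c and 3.05% for Tfap2e, against 3.28%, 4.96% and 3.86% with all. Within 100 kb it was 2.50% for Tfap2a and 4.31% for Tfap2e. Values were counted as unchanged within 1.5 times for counts, 1 SD of the replicates for coverage and the exact interval for the motif share. By this rule 67 of the 84 alternative values were unchanged and 17 moved. Among the single-replicate distal counts, only 46 for Tfap2a, 21 for Tfap2b and 24 for Tfap2d moved, all from replicate 1 alone. With 2 replicates, either one alone always lies within 1 SD of their mean. The single-replicate coverage values among the 67 could therefore not have moved and say nothing on stability. Tfap2c kept the most shared distal sites under each of these settings. Unknown read depth limits what can be said of regions found in 1 list. No paired analysis was possible because the samples form 1 group.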
